A study of Cricetulus griseus with 4 samples.

Results

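The 10 genes described here encode feedback inhibitors of ERK, the last kinase of the RAS-RAF-MEK-ERK cascade. They were chosen by name, with earlier results of these data known. They are 5 dual-specificity phosphatases (Dusp1, Dusp4, Dusp5, Dusp6, Dusp7), 3 Sprouty genes (Spry1, Spry2, Spry4) and 2 Spred genes (Spred1, Spred2). All 10 were found, 1 row each, among 20754 genes of the deposited table. The cells were CHO-K1, an established line derived from Chinese hamster ovary. There was 1 poly(A) RNA library for each of 4 treatments, namely 25-hydroxyvitamin D3, a selective inhibitor of SREBP (the sterol regulatory element-binding proteins that drive cholesterol synthesis), a selective activator of the vitamin D receptor (VDR) and DMSO. In every group, DMSO included, cells had 24 hr on the plate and then 24 hr of treatment in medium that held 50 µM compactin, a statin, with 50 µM lithium mevalonate and 5% serum depleted of lipids. The labels used here give no dose and no code name for the compounds.

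Growth factor receptors switch on RAS, which activates RAF, MEK and ERK in turn, and active ERK enters the nucleus and raises the transcription of its own inhibitors. From mouse and human cells, the MAP kinase phosphatases are known to remove the phosphates that activate ERK and related kinases, while Sprouty and Spred proteins act higher up, at RAS and RAF. Dusp6 and the Sprouty genes are widely read as transcriptional reporters of ERK activity. No kinase activity or protein was measured in these libraries.

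The libraries held 21335639 counts for 25-hydroxyvitamin D3, 23286707 for the SREBP inhibitor, 23653321 for the VDR activator and 21353306 for DMSO. The 25-hydroxyvitamin D3 library stood apart from the rest in its mitochondrial-encoded mRNAs, which made up 0.753% of its counts, against 5.25% with the SREBP inhibitor, 5.93% with the VDR activator and 6.81% in DMSO. Of 8 mesenchymal markers 5 reached 1 CPM in some library, with Thy1 at 0 and Col1a1 and Col1a2 under 1 CPM, and their summed level was 1255 CPM with 25-hydroxyvitamin D3, 2466 with the SREBP inhibitor, 1849 with the VDR activator and 2973 in DMSO. Summed epithelial markers lay between 0.900 and 1.81 CPM and endothelial markers between 0.196 and 0.431 CPM. Among 4 immune markers Ptprc and Cd3e were at 0, and the sum of 14.6 CPM with 25-hydroxyvitamin D3, against 4.57, 4.99 and 6.82 CPM in the SREBP inhibitor, VDR activator and DMSO libraries, was almost all Cd68. Of 4 granulosa markers in the table, Fshr and Cyp19a1 were at 0, and the sum was between 2.99 and 6.42 CPM. With mitochondrial-encoded genes left out of the scaling, the same members were called in all 6 comparisons. The part of the marker differences in the results below was not tested, and in bulk RNA fewer cells of a type cannot be told apart from less RNA per cell.

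CPM are counts per 1000000 after scaling by the trimmed mean of M values (TMM), and 1 CPM stood for 20.4 to 24.4 counts. With 1 library per treatment there is no test and no p-value. Folds are ratios of CPM, and the 95% interval beside a fold is the exact Clopper-Pearson interval of the counts in the 2 libraries. It covers counting error only and compares libraries, not conditions. A gene is called 2-fold higher or lower where log2(CPM + 1) differs by 1 or more, provided that either library reaches 1 CPM with 10 counts. The + 1 understates the difference of genes near 1 CPM.

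**Figure D1:**
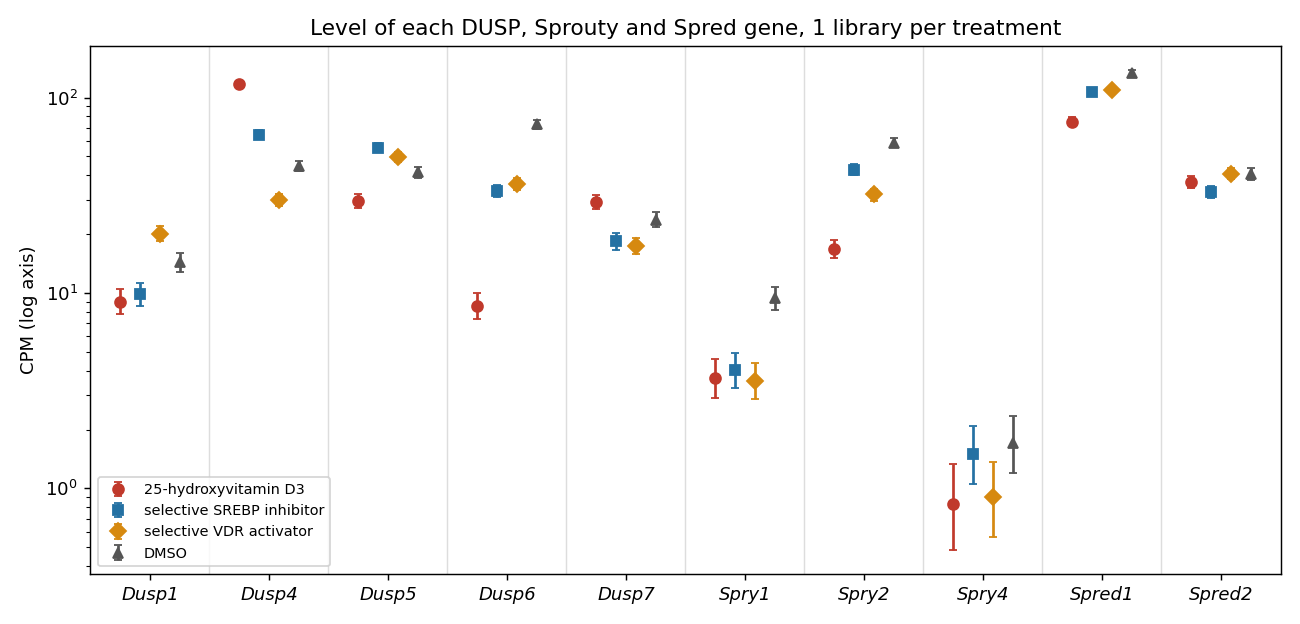
Level of each gene in CPM (log axis) in the 4 libraries, with points for single libraries and bars for 95% exact Poisson intervals, which cover counting error only. Dusp6 was at 8.59 CPM with 25-hydroxyvitamin D3, against 72.8 CPM in DMSO, Dusp4 was highest with 25-hydroxyvitamin D3 at 117 CPM, and the 3 treated libraries overlapped for Spry1.

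Among the cytoplasmic phosphatases, Dusp6, which is selective for ERK, had the widest range of the 10 genes. It stood at 8.59 CPM with 25-hydroxyvitamin D3, 33.4 with the SREBP inhibitor, 36.1 with the VDR activator and 72.8 in DMSO. All 3 treated libraries were below DMSO, the 2 selective compounds lay close together, and 25-hydroxyvitamin D3 was far below both. Against DMSO, Dusp6 was 8.48-fold lower with 25-hydroxyvitamin D3 (7.25 to 9.97), which made it the 82nd lowest of 11482 genes with sufficient counts. With the SREBP inhibitor it was 2.18-fold lower (2.00 to 2.38), in place 113 from the lowest of 11449. With the VDR activator it was 2.02-fold lower (1.86 to 2.19), in place 38 of 11431. That last log2(CPM + 1) difference was -0.99, just short of the 2-fold limit.

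Dusp7, the other cytoplasmic ERK phosphatase of the group, did not share this order. It was at 29.1 CPM with 25-hydroxyvitamin D3, 18.4 with the SREBP inhibitor, 17.4 with the VDR activator and 23.7 in DMSO, so that 25-hydroxyvitamin D3 was the highest library. Against DMSO it was 1.23-fold higher with 25-hydroxyvitamin D3 (1.09 to 1.39), 1.29-fold lower with the SREBP inhibitor (1.13 to 1.47) and 1.36-fold lower with the VDR activator (1.19 to 1.55). The SREBP inhibitor and VDR activator libraries could not be told apart by counting error.

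The nuclear, inducible phosphatases each had a different order. Dusp4, which acts on ERK and JNK in the nucleus, stood at 117 CPM with 25-hydroxyvitamin D3, 64.5 with the SREBP inhibitor, 29.8 with the VDR activator and 44.6 in DMSO. The selective compounds thus lay on opposite sides of DMSO, and no neighbours in this order had an interval that included 1. Dusp4 was 2.62-fold higher with 25-hydroxyvitamin D3 (2.44 to 2.83) and 1.45-fold higher with the SREBP inhibitor (1.33 to 1.57), but 1.5-fold lower with the VDR activator (1.36 to 1.65), each against DMSO. It was the only member called higher in a comparison with DMSO.

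Dusp1, an immediate early gene whose product acts on p38, JNK and ERK, had 9.03 CPM with 25-hydroxyvitamin D3, 9.82 with the SREBP inhibitor, 20.1 with the VDR activator and 14.4 in DMSO. Here too the selective compounds lay on opposite sides of DMSO, in the reverse direction to Dusp4. Dusp1 was 1.59-fold lower with 25-hydroxyvitamin D3 (1.32 to 1.92) and 1.46-fold lower with the SREBP inhibitor (1.23 to 1.74), but 1.40-fold higher with the VDR activator (1.21 to 1.62). The 25-hydroxyvitamin D3 and SREBP inhibitor libraries differed by less than counting error.

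Dusp5, a nuclear phosphatase selective for ERK, had 29.6 CPM with 25-hydroxyvitamin D3, 55.5 with the SREBP inhibitor, 49.6 with the VDR activator and 41.4 in DMSO. It was the one phosphatase of the 5 for which both selective compounds were above DMSO and 25-hydroxyvitamin D3 below. Against DMSO it was 1.40-fold lower with 25-hydroxyvitamin D3 (1.26 to 1.55), 1.34-fold higher with the SREBP inhibitor (1.23 to 1.46) and 1.20-fold higher with the VDR activator (1.10 to 1.31). None of these passed the 2-fold limit.

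The values of the Sprouty genes were below DMSO in all 3 treated libraries. Spry2, which blocks signalling from receptor tyrosine kinases to RAS and RAF, was at 16.8 CPM with 25-hydroxyvitamin D3, 42.8 with the SREBP inhibitor, 31.9 with the VDR activator and 58.8 in DMSO, with all 4 libraries apart from their neighbours beyond counting error. It was 3.50-fold lower with 25-hydroxyvitamin D3 (3.11 to 3.96), 1.37-fold lower with the SREBP inhibitor (1.26 to 1.49) and 1.84-fold lower with the VDR activator (1.68 to 2.02). The VDR activator value was the 64th lowest of 11431 genes although it missed the 2-fold limit.

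Spry1, known for restraining growth factor signalling in the developing mouse kidney, had 3.68 CPM with 25-hydroxyvitamin D3, 4.05 with the SREBP inhibitor, 3.56 with the VDR activator and 9.40 in DMSO. The 3 treated libraries overlapped and DMSO alone was high. Against DMSO, Spry1 was 2.55-fold lower with 25-hydroxyvitamin D3 (1.95 to 3.37), 2.32-fold lower with the SREBP inhibitor (1.81 to 2.99) and 2.64-fold lower with the VDR activator (2.04 to 3.43). It was the only member called in all 3 comparisons with DMSO, and in place 18 from the lowest with the VDR activator, but all 3 calls were lost with a pseudocount of 5 and on the authors' FPKM scale. These folds rest on 75, 94, 87 and 204 counts with 25-hydroxyvitamin D3, the SREBP inhibitor, the VDR activator and DMSO.

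Spry4 was close to the limit of detection, with 17, 35, 22 and 37 counts in the same order, or 0.834, 1.51, 0.900 and 1.70 CPM. It was 2.04-fold lower with 25-hydroxyvitamin D3 (1.12 to 3.87) and 1.89-fold lower with the VDR activator (1.09 to 3.37), while the interval for the SREBP inhibitor included 1 (1.13-fold lower, 0.692 to 1.85). No pair of neighbours in its order of levels could be told apart at this depth. None of its differences passed the 2-fold limit.

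Neither Spred gene passed the 2-fold limit against DMSO. Spred1, which brings the RAS inhibitor neurofibromin to the membrane, had 75.2 CPM with 25-hydroxyvitamin D3, 107 with the SREBP inhibitor, 109 with the VDR activator and 133 in DMSO. It was 1.77-fold lower with 25-hydroxyvitamin D3 (1.67 to 1.89), 1.25-fold lower with the SREBP inhibitor (1.19 to 1.32) and 1.23-fold lower with the VDR activator (1.16 to 1.30). Spred2, its close relative, had 36.9, 32.7, 40.8 and 40.6 CPM in the 25-hydroxyvitamin D3, SREBP inhibitor, VDR activator and DMSO libraries. Its interval against DMSO excluded 1 only with the SREBP inhibitor, where it was 1.24-fold lower (1.12 to 1.37), and it had the narrowest range of the 10 genes as a ratio of highest to lowest CPM, 1.25-fold.

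**Figure D2:**
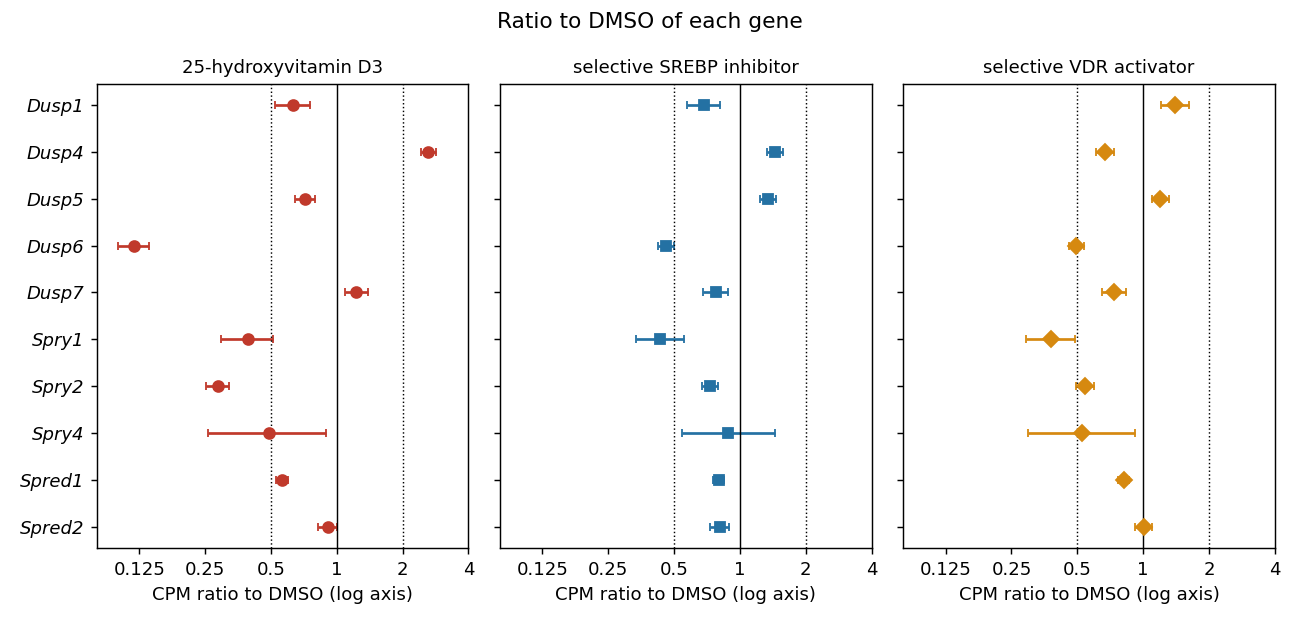
Ratio of CPM to DMSO (log axis) for each gene in the 3 treated libraries, with 95% Clopper-Pearson intervals for counting error, a solid line at a ratio of 1 and dotted lines at 2-fold either way. Dusp6, Spry1, Spry2, Spry4 and Spred1 lie left of 1 in all 3 panels, although the Spry4 interval with the SREBP inhibitor includes 1. Dusp1 and Dusp4 change sides between the SREBP inhibitor and the VDR activator.

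Counted over the 10 genes, 25-hydroxyvitamin D3 against DMSO had 3 genes 2-fold lower (Dusp6, Spry2, Spry1) and 1 higher (Dusp4). Among all 11482 genes compared, 12.2% were 2-fold lower and 11.6% higher, so 1 higher member in 10 is near that background. The median difference was -0.59 log2 over the 10 genes and 0.04 over all genes compared. The SREBP inhibitor against DMSO had 2 members lower (Dusp6, Spry1) and 0 higher, where 1.40% of all genes were lower and 1.95% higher, with medians of -0.34 and 0.01. The VDR activator against DMSO had 1 member lower (Spry1) and 0 higher, where 0.324% of all genes were lower and 0.184% higher, with medians of -0.47 and 0.01. These counts are small, and the members were chosen with earlier results of these data known. The 3 comparisons also share the DMSO library, so a high DMSO value of a gene enters all of them.

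Calls in all 3 comparisons depended on the settings. The Spry1 call was lost in each of them with a pseudocount of 5 in place of 1 and on the authors' FPKM scale, where its difference with 25-hydroxyvitamin D3 was -0.73 and -0.96. Dusp6, Spry2 and Dusp4 kept their calls with 25-hydroxyvitamin D3 under every alternative tried. With a pseudocount of 5, the SREBP inhibitor kept Dusp6 alone and the VDR activator had 0 members lower, while with one of 0.1 the VDR activator had 2, Dusp6 and Spry1. On the FPKM scale neither selective compound had a member lower.

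The compounds were set against each other in 3 pairs, and whether their doses were matched is not known from the labels. The widest member difference was that of Dusp6 between 25-hydroxyvitamin D3 and either selective compound, and that of Dusp4 between the selective compounds. 25-hydroxyvitamin D3 against the SREBP inhibitor had 2 of 10 members 2-fold lower and 0 higher, where 6.05% of all 11314 genes were lower and 3.15% higher. Dusp6 was 3.89-fold lower (3.30 to 4.61) and Spry2 2.55-fold lower (2.25 to 2.89). Dusp4 was 1.82-fold higher (1.70 to 1.94) and Dusp5 1.87-fold lower (1.70 to 2.06), both short of the limit. For Dusp1 and Spry1 the intervals of the ratio included 1, at 0.753 to 1.12 and 0.662 to 1.24.

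25-hydroxyvitamin D3 against the VDR activator had 1 member higher and 2 lower among the 9 with sufficient counts, Spry4 being under 1 CPM in both. Of all 11387 genes, 8.54% were higher and 9.90% lower. Higher genes were 46.3% of those called, and 35.9% with scaling to total counts. Dusp4 was 3.93-fold higher (3.61 to 4.27), in place 122 from the highest. Dusp6 was 4.20-fold lower (3.57 to 4.97) and Dusp1 2.23-fold lower (1.88 to 2.65), and the Dusp1 call was lost with a pseudocount of 5. Spry1 had a ratio of 1.03, with an interval of 0.749 to 1.42.

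The SREBP inhibitor against the VDR activator had 1 member higher, Dusp4, and 0 lower, where 0.967% of all 11374 genes were higher and 0.739% lower. Dusp4 was 2.16-fold higher (1.98 to 2.37), a call lost with a pseudocount of 5 and on the FPKM scale. Dusp1 was 2.05-fold lower (1.74 to 2.40) but at -0.96 on the log2(CPM + 1) scale, and it passed the limit with scaling to total counts or a pseudocount of 0.1. For Dusp6 the ratio was 0.926 with an interval of 0.840 to 1.02, and for Spred1 0.982 (0.929 to 1.04). Spry2 was 1.34-fold higher (1.22 to 1.47).

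The differences from DMSO of the 3 compounds stand side by side as follows, on the log2(CPM + 1) scale. Dusp6 had -2.94 with 25-hydroxyvitamin D3, against -1.10 with the SREBP inhibitor and -0.99 with the VDR activator, which add to -2.09. Spry1 had -1.15, against -1.04 and -1.19, which add to -2.23. For Spry1 the 25-hydroxyvitamin D3 difference thus lay between those of the selective compounds, whereas for Dusp6 it was beyond both. Dusp4 had 1.37 with 25-hydroxyvitamin D3, against 0.52 with the SREBP inhibitor and -0.57 with the VDR activator, which add to -0.04. Dusp5 had -0.47, against 0.41 and 0.26, so its sign with 25-hydroxyvitamin D3 was opposite to both. Dusp7 likewise had 0.29, against -0.35 and -0.42.

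Per gene length, on the authors' FPKM scale, the leading phosphatase differed between libraries. Dusp6 made up 3.83% of the summed FPKM of the 5 phosphatases with 25-hydroxyvitamin D3, 16.9% with the SREBP inhibitor, 19.7% with the VDR activator and 31.9% in DMSO. Dusp4 made up 49.9%, 31.1%, 15.5% and 18.6% in the same order. The Dusp4 level was 13.0 times the Dusp6 level with 25-hydroxyvitamin D3, but 0.585 times in DMSO. The summed level of the 5 phosphatases varied far less, at 46.9 FPKM with 25-hydroxyvitamin D3, 44.9 with the SREBP inhibitor, 41.8 with the VDR activator and 50.7 in DMSO.

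The Sprouty and Spred genes had lower sums in the treated libraries. Summed Sprouty levels were 8.60 FPKM with 25-hydroxyvitamin D3, 21.6 with the SREBP inhibitor, 16.3 with the VDR activator and 30.3 in DMSO, most of it Spry2. Summed Spred levels were 26.6, 32.9, 36.7 and 40.1 FPKM in the same order. Spry2 was the member with the highest FPKM in the SREBP inhibitor and DMSO libraries, Spred1 in the VDR activator library and Dusp4 in the 25-hydroxyvitamin D3 library, where Spry2 was in place 5.

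**Figure D3:**
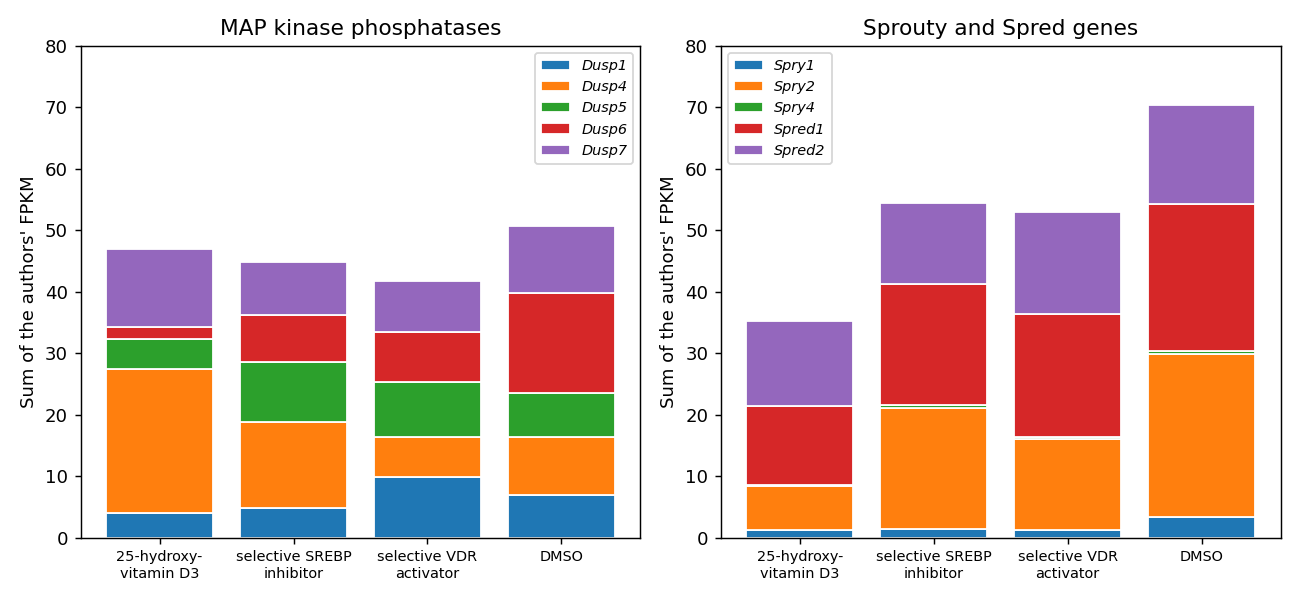
Stacked bars of the authors' FPKM of the 5 phosphatases (left) and the 5 Sprouty and Spred genes (right) in the 4 libraries, 1 library per bar. The left bars are of like height, from 41.8 to 50.7 FPKM, with Dusp4 as the largest part in the 25-hydroxyvitamin D3 and SREBP inhibitor libraries, Dusp1 in the VDR activator library and Dusp6 in DMSO, and the right bars are lowest with 25-hydroxyvitamin D3.

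Genes whose levels over the 4 libraries lay closest to those of a member were found by the Euclidean distance between log2(CPM + 1) values, each centred on its gene's mean, among 9196 named genes that reached 5 CPM in some library. They are given for the 3 members with the widest range. Nearest to Dusp6 were Fam43a (distance 0.14 log2), the calcium-binding protein gene S100a4 (0.19) and the secreted protein gene Srpx2 (0.20). S100a4 is also one of the mesenchymal markers listed above. It was at 1.86 CPM with 25-hydroxyvitamin D3, 8.53 with the SREBP inhibitor, 8.84 with the VDR activator and 17.3 in DMSO. Fam43a was at 6.97 CPM with 25-hydroxyvitamin D3, 30.5 with the SREBP inhibitor, 28.6 with the VDR activator and 60.4 in DMSO. Nearest to Dusp4 were the adhesion receptor gene Adgrd1 (0.14), the polarity gene Pard3b (0.22) and Crim1 (0.26). Nearest to Spry2 were Papln (0.12), the sarcospan gene Sspn (0.13) and the sialyltransferase gene St3gal3 (0.14). With 4 libraries such likeness is a description only.

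Of the other MAP kinase phosphatases, 2 of 5 were at 0 counts in every library (Dusp2 and Dusp9), which allows up to 0.123 to 0.147 CPM per library. The 3 measured ones act mainly on JNK and p38. With 25-hydroxyvitamin D3, 2 of the 3 were 2-fold higher and 0 lower, with a median of 1.44, where 11.6% of all genes were higher and 12.2% lower. Dusp16 was at 197 CPM with 25-hydroxyvitamin D3, 79.0 with the SREBP inhibitor, 59.9 with the VDR activator and 52.7 in DMSO, and so 3.73-fold higher with 25-hydroxyvitamin D3 (3.49 to 3.99). Dusp8 was at 6.23, 3.83, 1.88 and 1.66 CPM in the same order, and its call was lost with a pseudocount of 5. None of the 3 passed the limit with the SREBP inhibitor (median 0.57) or the VDR activator (median 0.12). Among all genes, 1.95% were higher and 1.40% lower with the SREBP inhibitor, and 0.184% and 0.324% with the VDR activator. For both compounds, 0 of 3 is near these shares.

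Other negative regulators of ERK signalling did not move together. The neurofibromin gene Nf1 was also listed, but it stands under separate rows without its symbol and was left out of the counts. Of 13 measured, 1 was 2-fold higher and 2 lower with 25-hydroxyvitamin D3 (median 0.05), near the 11.6% and 12.2% of all genes. There were 0 higher and 1 lower with the SREBP inhibitor (median -0.10; 1.95% and 1.40% of all genes). The VDR activator had 0 either way (median -0.12; 0.184% and 0.324% of all genes). Lrig1, which restrains receptors of the EGF family, was at 32.8 CPM with 25-hydroxyvitamin D3, 206 with the SREBP inhibitor, 328 with the VDR activator and 427 in DMSO. It was 13.0-fold lower with 25-hydroxyvitamin D3 (12.0 to 14.1) and 2.07-fold lower with the SREBP inhibitor (2.00 to 2.14). The RAS GTPase activator gene Rasal2 was 3.12-fold higher with 25-hydroxyvitamin D3 (2.91 to 3.35). The other lower gene with 25-hydroxyvitamin D3, the phosphatase gene Ptpn7, is named after its values were seen, at 0.147 CPM against 3.27 in DMSO.

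Genes listed as responding to ERK, with Elk1, Elk3 and Elk4 among them, went both ways. With 25-hydroxyvitamin D3, 8 of 18 measured were 2-fold lower and 3 higher (median -0.76), where 12.2% of all genes were lower and 11.6% higher, and the 3 higher are near that share. Egr1, an immediate early transcription factor, was 11.8-fold lower (9.72 to 14.5), Ier3 7.43-fold lower (6.54 to 8.47) and the ETS factor genes Etv1 and Etv5 4.00-fold and 3.14-fold lower. Etv4, of the same ETS subfamily, was 1.75-fold lower (1.67 to 1.82), short of the limit. The other genes called lower, Egr2, Egr3, Elk4 and Ccnd1, are named after their values were seen. Fosl1 was 8.20-fold higher (7.30 to 9.22), and Myc 8.45-fold higher (7.65 to 9.35). A second row of the table has the same description as Myc, so its reads may be split, and that row was 8.27-fold higher. The third gene called higher, Phlda1, is named after its values were seen, at 30.9 CPM with 25-hydroxyvitamin D3 and 9.26 in DMSO.

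With the SREBP inhibitor, 1 of 18 was lower, Etv1 at 2.17-fold (2.00 to 2.36), and 2 were higher, Fosl1 at 3.90-fold and Myc at 4.11-fold (median -0.20). Among all genes compared, 1.40% were lower and 1.95% higher with that compound. With the VDR activator 0 of 19 were lower and 1 was higher, Myc at 2.08-fold (1.86 to 2.34; median -0.29), a call lost with a pseudocount of 5. The shares of all genes there were 0.324% lower and 0.184% higher. Egr1 was at 5.30 CPM with 25-hydroxyvitamin D3, 42.6 with the SREBP inhibitor, 46.1 with the VDR activator and 62.7 in DMSO, the same order as Dusp6. For both genes the SREBP inhibitor and VDR activator libraries could not be told apart by counting error (Egr1 ratio 0.924, 0.848 to 1.01). Ier3, Etv1 and Etv5 had this order too, and Etv4 did not. Fos was near the limit of detection, at 0.343 CPM with 25-hydroxyvitamin D3, 0.345 with the SREBP inhibitor, 1.02 with the VDR activator and 0.783 in DMSO, and its interval against DMSO included 1 for all 3 compounds.

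Few genes of the cascade itself passed the 2-fold limit. Of its 20 genes, all measured, 1 was 2-fold lower and 0 higher with 25-hydroxyvitamin D3, where 12.2% and 11.6% of all genes were. The differences ran from -1.09 to 0.89 (median 0.09). None passed the limit with the SREBP inhibitor (median 0.05; 1.40% of all genes lower and 1.95% higher). The same held for the VDR activator (median -0.02; 0.324% and 0.184%), and 0 genes is near these shares. The lower gene was Mapk3, which encodes ERK1, at 111 CPM with 25-hydroxyvitamin D3 and 237 in DMSO, 2.14-fold lower (2.04 to 2.25). Against DMSO, Mapk3 was 1.19-fold lower with the SREBP inhibitor (1.14 to 1.24) and 1.24-fold lower with the VDR activator (1.19 to 1.29).

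**Figure D4:**
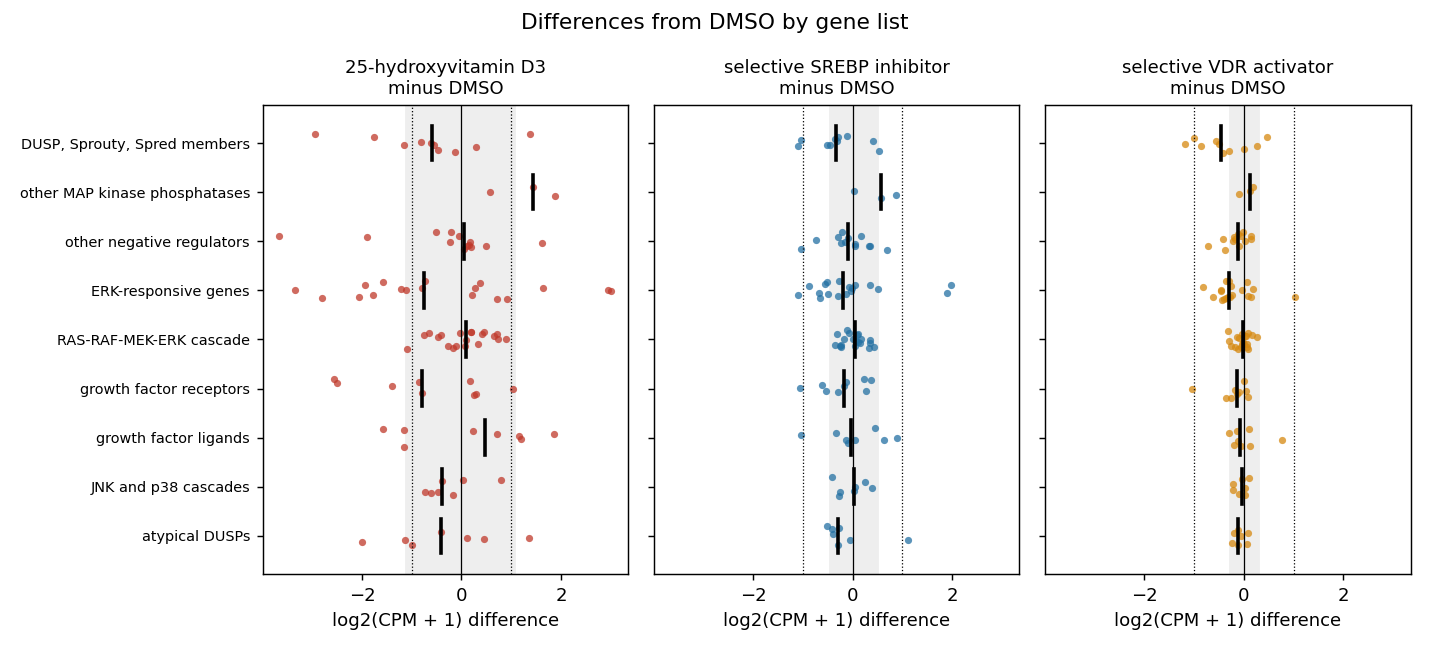
Differences from DMSO on the log2(CPM + 1) scale for the measured genes of each list, 1 point per gene, with black bars at list medians, dotted lines at the 2-fold limits and a grey band from the lowest to the highest decile of all genes compared. The band is widest for 25-hydroxyvitamin D3, from -1.12 to 1.07, and the median of the DUSP, Sprouty and Spred genes lies below 0 in each panel.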

How the data were processed

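The authors deposited 1 table with estimated counts (15.8 to 16.8% of rows per library were not whole) and FPKM for each gene. TopHat2 (version 2) and bcl2fastq (version 1) appear in the submitters' processing notes without a stated role. For the counting tool, genome build and annotation, nothing is stated in the sources used here. RNA was isolated with ISOGEN and libraries made with a TruSeq mRNA kit, per the labels' protocols. The table's 21266 rows were joined by gene name to 20754 genes, and 7 listed genes under a LOC identifier were found by description or gene identifier. Estimated counts were rounded and scaled by TMM in edgeR 4.0.16 (R 4.3.3), and intervals came from SciPy 1.17.1. Differences are on the log2 scale of CPM with a pseudocount of 1, computed from the deposited counts. The call rule was tried on simulated Poisson counts, which hold counting error only and no variation between cultures. DESeq2 1.42.0 size factors served as an alternative scaling.

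The members and gene lists were chosen with earlier results of these data known. Genes outside the 10 members were named by a rule, with up to 4 per list and comparison past the 2-fold limit at 5 CPM or more, by size of difference, plus Egr1, Fos, Etv4, Etv5, Mapk3 and Hbegf. Another gene of that rule is not reported here.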

Additional observations from a re-analysis of the deposited data

How the results depend on the processing

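No paired analysis was possible because each treatment has 1 library, and for the same reason no replicate could be left out. Direction held for every member called 2-fold in the 6 comparisons, under every scaling and pseudocount tried. With a 1.5-fold limit, members lower against DMSO were 5 for 25-hydroxyvitamin D3 (main count 3) and 3 for the VDR activator (main count 1). With that limit, 25-hydroxyvitamin D3 had 2 higher against the SREBP inhibitor (main count 0), and 2 higher and 4 lower against the VDR activator (main counts 1 and 2). For the pair of SREBP inhibitor and VDR activator it gave 1 lower (main count 0), as did total count scaling and a pseudocount of 0.1. A pseudocount of 0.1 also gave 2 lower with the VDR activator against DMSO. With a pseudocount of 5, members lower against DMSO were 1 with the SREBP inhibitor (main count 2) and 0 with the VDR activator, and 25-hydroxyvitamin D3 had 1 lower against the VDR activator. On the FPKM scale 0 members were called lower against DMSO with either selective compound, Dusp6 falling just short of the limit with the SREBP inhibitor. The call of Dusp4 higher in the pair of SREBP inhibitor and VDR activator became 0 with a pseudocount of 5 and on the FPKM scale. A pseudocount of 1 on the FPKM scale shrinks low genes such as Spry1 by construction, and other causes were not tested. DESeq2 size factors, TMM without mitochondrial-encoded genes, no filter, a minimum of 5 CPM and, chosen after seeing the data, TMM without the 25-hydroxyvitamin D3 library moved no count of members by over 1.5 times.

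Over all genes, a 1.5-fold limit moved every count of calls by over 1.5 times, to between 219 (main 37, VDR activator lower than DMSO) and 2773 (main 1332, 25-hydroxyvitamin D3 higher than DMSO). With a pseudocount of 5, genes lower against DMSO were 830 (main 1403) with 25-hydroxyvitamin D3, 93 (main 160) with the SREBP inhibitor and 14 (main 37) with the VDR activator. Genes higher were 143 (main 223) with the SREBP inhibitor and 5 (main 21) with the VDR activator. That setting also gave 237 higher (main 356) and 314 lower (main 685) for 25-hydroxyvitamin D3 against the SREBP inhibitor, 616 lower (main 1127) against the VDR activator, and 71 higher (main 110) and 46 lower (main 84) between the selective compounds. With a pseudocount of 0.1, genes lower were 307 with the SREBP inhibitor and 86 with the VDR activator against DMSO and 180 between the selective compounds, and 45 were higher with the VDR activator. On the FPKM scale genes lower against DMSO were 103 with the SREBP inhibitor and 21 with the VDR activator, and 190 were higher with 25-hydroxyvitamin D3 than with the SREBP inhibitor. Depth limits Spry4 most, with 17 to 37 counts per library.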

Other observations

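Over all genes, 12.2% were lower and 11.6% higher with 25-hydroxyvitamin D3 against DMSO, 1.40% and 1.95% with the SREBP inhibitor, and 0.324% and 0.184% with the VDR activator. Of 9 measured genes of growth factor receptors, which start the cascade, 3 were 2-fold lower and 1 higher with 25-hydroxyvitamin D3 (median -0.78), 1 lower with the SREBP inhibitor (median -0.17) and 1 lower with the VDR activator (median -0.14), with 0 higher for both selective compounds. Pdgfrb, a receptor for platelet-derived growth factor, was at 21 CPM with 25-hydroxyvitamin D3, 61.6 with the SREBP inhibitor, 61.9 with the VDR activator and 129 in DMSO, and so was called lower in all 3 comparisons, at 6.16-fold, 2.10-fold and 2.09-fold, although the calls of both selective compounds were lost on the FPKM scale. Its relative Pdgfra was 5.75-fold lower with 25-hydroxyvitamin D3 (5.35 to 6.19) and the hepatocyte growth factor receptor gene Met 2.66-fold lower (2.51 to 2.82), while the insulin receptor gene Insr was 2.07-fold higher (1.92 to 2.24), a call lost with total count scaling, a pseudocount of 5 and on the FPKM scale. Egfr was at 0 counts in all libraries but that of the VDR activator, where it was at 0.0818 CPM.

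Of 8 measured growth factor ligand genes, 3 were higher and 3 lower with 25-hydroxyvitamin D3 (median 0.48; 11.6% and 12.2% of all genes). There were 0 higher and 1 lower with the SREBP inhibitor (median -0.02; 1.95% and 1.40% of all genes). The VDR activator had 0 either way (median -0.08; 0.184% and 0.324% of all genes). Vegfa was 3.69-fold higher (3.40 to 4.01) and Hbegf 2.60-fold higher (2.05 to 3.32) with 25-hydroxyvitamin D3, while Hgf, the ligand of Met, was 3.10-fold lower (2.77 to 3.48) and Ereg 2.35-fold lower (1.98 to 2.78). The Hbegf and Ereg calls were lost with a pseudocount of 5. Hgf was also 2.10-fold lower with the SREBP inhibitor (1.92 to 2.31), a call lost with a pseudocount of 5 and on the FPKM scale. Areg, at 67.7 CPM with 25-hydroxyvitamin D3 and 30.0 in DMSO, and Pdgfc, at 24.6 CPM with 25-hydroxyvitamin D3 and 55.9 in DMSO, are named after their values were seen.

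The atypical dual-specificity phosphatases lack the MAP kinase binding domain. With 25-hydroxyvitamin D3, 1 of 7 measured genes was higher and 2 lower (median -0.40; 11.6% and 12.2% of all genes). There was 1 higher and 0 lower with the SREBP inhibitor (median -0.29), where 1.95% and 1.40% of all genes were. The VDR activator had 0 either way (median -0.11), near the 0.184% higher and 0.324% lower of all genes. Dusp15 was 2.79-fold higher with 25-hydroxyvitamin D3 (2.30 to 3.40) and 2.35-fold higher with the SREBP inhibitor (1.94 to 2.87), where the call was lost with a pseudocount of 5. Dusp14 was 4.76-fold lower (3.75 to 6.11) and Dusp19 2.26-fold lower (2.03 to 2.50) with 25-hydroxyvitamin D3. None of 7 measured genes of the JNK and p38 cascades passed the limit in any comparison with DMSO (medians -0.39, 0.02 and -0.04 for 25-hydroxyvitamin D3, the SREBP inhibitor and the VDR activator). Among all genes, 11.6% were higher and 12.2% lower with 25-hydroxyvitamin D3. The shares were 1.95% and 1.40% with the SREBP inhibitor, and 0.184% and 0.324% with the VDR activator. For the selective compounds, 0 of 7 is near these shares.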
